A study of Mus musculus with 8 samples.

Results

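The genes described here are those named for proteins of the cytosolic ribosome, measured by RNA sequencing of the mouse hippocampus. They were taken from the count table by name: Rpl or Rps with a number and an optional letter suffix, together with Rplp0, Rplp1, Rplp2 and Rpsa, leaving out the Rps6k kinases and names with the pseudogene suffix -ps. Of 46078 rows, 89 matched, and the 81 with a mean of at least 1 CPM (counts scaled to the library total) were kept, 33 of the small (40S) and 48 of the large (60S) subunit. One of the 81, Rps4l, is a transcribed processed pseudogene in GENCODE. Both groups of libraries came from C57BL/6J mice of 9 weeks. One was wild type (WT, 4 libraries) and the other carried T29-1, a transgene in which the promoter of Camk2a drives Cre recombinase, on one chromosome copy (T29-1 Cre, 4 libraries). Camk2a is a kinase gene of forebrain excitatory neurons, so Cre is directed to such neurons, while the RNA measured came from all cells of the tissue. The comparison asks whether carrying this transgene alone goes with a different level of these mRNAs.

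Ribosomal proteins are made in near-equal amounts, because each ribosome holds a single copy of nearly all of them, and surplus protein is degraded. Their mRNAs are short, abundant and present in every cell type. Most begin with a run of pyrimidines, the terminal oligopyrimidine (TOP) motif, through which the mTOR kinase and the RNA-binding protein LARP1 control their translation, and many of the genes carry small nucleolar RNAs in their introns. In neurons, ribosomal protein mRNAs are found in dendrites and axons as well as in the cell body.

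Total counts were 23358289 to 30882631 per library. CPM values below are scaled by TMM, the trimmed mean scaling of edgeR. All 10 markers of hippocampal principal neurons were detected in all libraries, with a summed level of 7312 to 7579 CPM in WT and 7007 to 7395 CPM in T29-1 Cre. Nothing in the labels ties each library to an animal of its own, so the tests measure the spread between these libraries, which may be technical. Among 15996 tested genes, edgeR's quasi-likelihood test with Benjamini-Hochberg adjustment called 1 between the genotypes. DESeq2 and limma-voom each called 1 as well. In the ribosomal protein genes WT replicate 4 differed from the other 7 libraries, and over all tested genes it was the highest of the 8 for 25.5%. Differences are given with and without it where leaving it out moves them. In bulk tissue, fewer cells of a type and less RNA per cell cannot be told apart.

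The 81 genes together held about 1 in 100 of all counts. Their share of the counts was 0.9796%, 1.02%, 0.9823% and 1.224% in WT replicates 1 to 4, and 1.056%, 0.9516%, 1.015% and 0.946% in T29-1 Cre replicates 1 to 4. WT replicate 4 was the highest of the 8, and the other 3 WT libraries lay inside the range of the T29-1 Cre libraries. The mean share was 1.05% ± 0.116 in WT (SD, n = 4), 0.994% ± 0.0226 in WT without replicate 4 (SD, n = 3) and 0.992% ± 0.0528 in T29-1 Cre (SD, n = 4). The ratio of T29-1 Cre to WT was therefore 0.944 with all libraries and 0.998 without WT replicate 4. The balance of the subunits varied little: the summed CPM of the 40S genes divided by that of the 60S genes ran from 0.6189 to 0.64 over the 8 libraries.

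No ribosomal protein gene passed the threshold between the genotypes. edgeR called 0 of the 81, where it called 0.00625% of all tested genes, and 0 had an unadjusted p under 0.05, against 2.43% of all genes (up to 7 of the 81 did on leaving out 1 library, WT replicate 1). DESeq2 and limma-voom also called 0, each with 0 at an unadjusted p under 0.05. The differences were small and mostly of the same sign: 79 genes were lower in T29-1 Cre and 2 higher, with a median log2 fold change of -0.09 and a range of -0.17 for Rps27 to 0.03 for Rps15a. Of all tested genes, 50.2% had a lower value. The median was -0.09 for the 40S and -0.08 for the 60S genes. The 95% interval of the fold change lay within 1.5-fold in either direction for all 81 genes. The lowest limit of any was 0.735, for Rps27l (0.779 for the 76 genes that are not paralog copies), and the highest 1.11, for Rpl34, so that a larger fall or rise lies outside the intervals. The libraries of the genotypes overlapped for every ribosomal protein gene. Of all tested genes, 0.963% had libraries that lay fully lower in T29-1 Cre, a share too small to set 81 genes apart. The share that lay fully higher is not given here.

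The sign of these differences depended on WT replicate 4. Without that library T29-1 Cre had the lower value for 46 genes and the higher one for 35, and the median log2 fold change was -0.01. Of 16139 genes tested in that fit 51.2% had a lower value, and edgeR called 0 ribosomal protein genes against 0.0062% of all genes. A single one, Rpl34, then had an unadjusted p under 0.05 (2.87% of all genes did), and its value was higher in T29-1 Cre. With all 8 libraries and a correction of each library for transcript length and GC content, 69 of the 81 had a lower value, against 51.1% of all genes, and the median was -0.03. The plot of the differences sets the values from all libraries beside those without WT replicate 4.

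**Figure D1:**
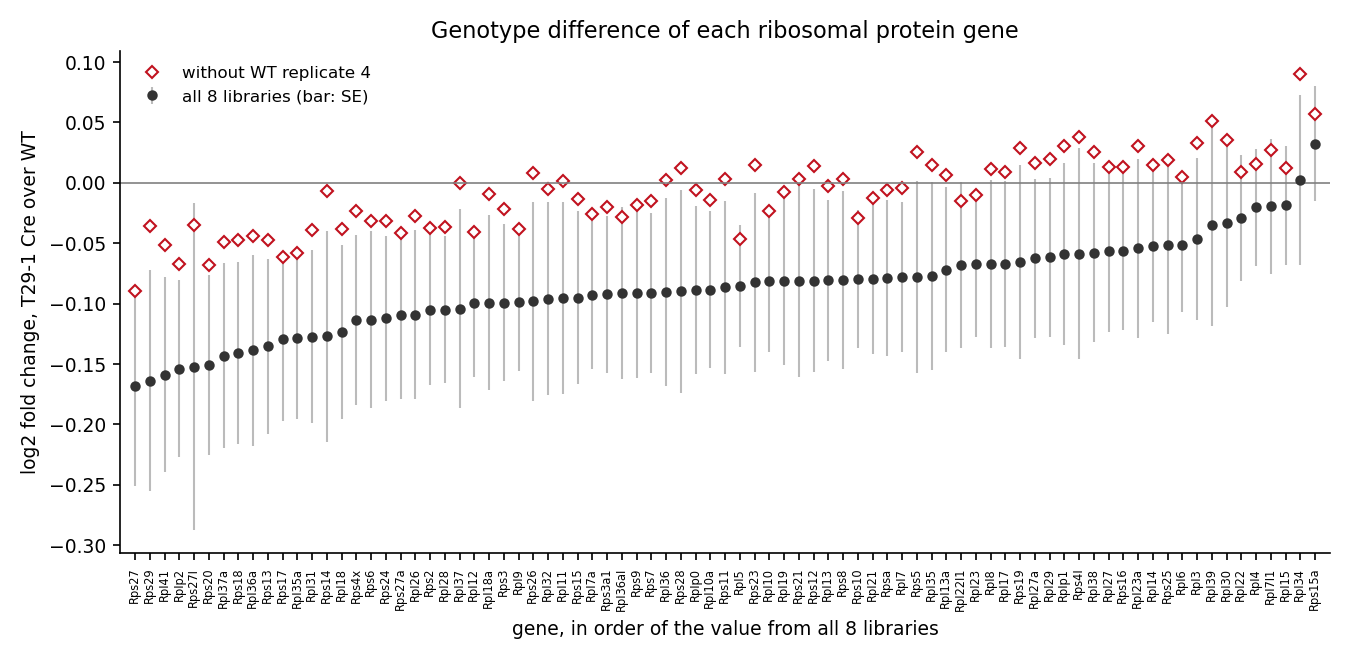
Log2 fold change of T29-1 Cre over WT for each of the 81 ribosomal protein genes, in order of the value from all 8 libraries (filled circles, bars are the standard error) and without WT replicate 4 (open diamonds). With all libraries 79 circles lie below 0; without WT replicate 4, 46 diamonds do, and each diamond lies above its circle.

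The 95% intervals of the stalk proteins and of Rpsa all included a fold change of 1. Rplp0, Rplp1 and Rplp2 encode the acidic stalk, where translation factors dock on the 60S subunit, and Rpsa encodes a protein of the 40S head that also acts as a laminin receptor. Rplp2, on the plus strand of chromosome 7 (141447370 to 141451585, GRCm38), had the smallest p of the 81 genes. Its level was 74.3, 72.4, 77.7 and 93.4 CPM in WT replicates 1 to 4 and 75.6, 67.9, 70.4 and 71.5 CPM in T29-1 Cre. WT replicate 4 was the highest, and T29-1 Cre replicate 1 lay above WT replicates 1 and 2. The log2 fold change was -0.15 (SE 0.0732, edgeR adjusted p = 0.9985, unadjusted p = 0.0547) and the exact two-sided permutation test gave p = 0.114, where the smallest possible is 0.0286. Without WT replicate 4 its value was -0.07 (SE 0.0454). Rplp0, at 182 ± 21.2 CPM in WT libraries and 171 ± 5.36 CPM in those of T29-1 Cre (SD, 4 libraries each), had a log2 fold change of -0.09 (SE 0.0693). Rplp1, at 273 ± 34.3 and 262 ± 14.1 CPM, had one of -0.06 (SE 0.0753), and Rpsa, at 282 ± 29.04 and 267 ± 9.47 CPM, one of -0.08 (SE 0.0647). Without WT replicate 4 these 3 values were -0.01, 0.03 and -0.01.

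Of the 40S genes, Rps27 had the lowest value of all 81. It encodes a zinc finger protein of the small subunit, also known as metallopanstimulin, from a gene on the minus strand of chromosome 3 (90212522 to 90213651, GRCm38). Its level was 48.6, 44.8, 47.6 and 57.5 CPM in WT and 49.3, 39.1, 46.2 and 41.9 CPM in T29-1 Cre. The groups overlapped, with T29-1 Cre replicates 2 and 4 the lowest libraries and WT replicate 4 the highest. The log2 fold change was -0.17 (SE 0.0834, exact permutation p = 0.200) and -0.09 (SE 0.0673) without WT replicate 4. Rps20, a protein of the 40S head, was at 58.9, 60.02, 57.7 and 72.8 CPM in WT and 58.3, 50.6, 57.2 and 58.3 CPM in T29-1 Cre. Here WT replicate 4 was far above and T29-1 Cre replicate 2 far below the rest, while the other 6 libraries lay between 57.2 and 60.02 CPM. Its log2 fold change was -0.15 (SE 0.0747), or -0.07 (SE 0.0509) without WT replicate 4, and its exact permutation p of 0.0857 was, together with that of Rpl28, the smallest of the 81. Rps29, a zinc-binding protein of the head, held 66.9, 64.5, 62.8 and 88.9 CPM in WT and 66.0, 60.6, 64.5 and 61.3 CPM in T29-1 Cre. Its difference of -0.16 (SE 0.0916) became -0.04 (SE 0.0443) without WT replicate 4, the library in which it stood 1.37-fold above the mean of the other WT libraries.

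Among the 60S genes, Rpl41 and Rpl35a had the smallest p after Rplp2. Rpl41 encodes the smallest ribosomal protein, a short basic peptide at the interface of the subunits. It was at 117, 120.4, 120.0 and 156 CPM in WT and 123, 113, 114 and 110.0 CPM in T29-1 Cre. WT replicate 4 lay far above the other 7 libraries, which overlapped. The log2 fold change was -0.16 (SE 0.0808), or -0.05 (SE 0.0426) without that library. Rpl35a, mutated in some patients with Diamond-Blackfan anaemia, was at 60.7, 64.0, 64.4 and 75.7 CPM in WT and 64.0, 57.8, 62.2 and 58.1 CPM in T29-1 Cre. Its log2 fold change was -0.13 (SE 0.0673) with all libraries and -0.06 (SE 0.0473) without WT replicate 4.

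The 2 genes with a higher value in T29-1 Cre were Rpl34 and Rps15a. Rpl34 (chromosome 3, 130726831 to 130730398, minus strand), a 60S protein, was at 58.7, 60.4, 59.0 and 74.3 CPM in WT and 65.3, 63.0, 62.6 and 61.9 CPM in T29-1 Cre. All 4 T29-1 Cre libraries thus lay above WT replicates 1 to 3 and below WT replicate 4. The log2 fold change was 0.00 (SE 0.0704) with all libraries and 0.09 (SE 0.0397) without WT replicate 4. In the fit without that library edgeR gave an unadjusted p = 0.0387 and an adjusted p = 0.9998. The exact permutation test without it gave p = 0.0571, the smallest value possible with so few libraries. Rps15a (chromosome 7, 118104372 to 118116188, minus strand), a 40S protein, was at 105.0, 103.8, 105.2 and 111.6 CPM in WT and 109.2, 107.6, 114.0 and 104.5 CPM in T29-1 Cre. It was the only one of the 81 that was not highest in WT replicate 4, which came behind T29-1 Cre replicate 3. Its log2 fold change was 0.03 (SE 0.0474) and, without WT replicate 4, 0.06 (SE 0.0398).

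The TOP motif was looked for at the RefSeq start sites (GRCm38.p6) as a feature that the names did not use. The motif was counted where a C at the annotated first base was followed by at least 4 further C or T, on the gene's own strand. It stood there in 13 of the 60 ribosomal protein genes with a RefSeq window, and in 18.3% of their windows against 2.51% of all 32851 windows. An annotated start that lies some bases away from the base where transcription begins hides the motif, and within 10 bases of the start a run was present in 43.7% of their windows and 23.6% of all windows. The sequences below show it for the 3 genes with small p that have such a run, for Rps6, whose protein is the classic phosphorylation target downstream of mTOR, and for Rps15a, which was not lower. Rpl34 and Rpl41 are shown as genes without a counted run at this base. Rpl35a and Rpl34 also have other annotated starts, not shown, where no counted run began within 10 bases. At that other start of Rpl34 the first base is a T inside a longer stretch of C and T. That stretch begins farther upstream, so the rule did not count it. Each sequence holds 30 bases, 5′ to 3′, with the pyrimidine run near the start in capitals.
Rps27 (chr3:90213634-90213663, minus strand): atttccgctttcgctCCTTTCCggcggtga
Rplp2 (chr7:141447636-141447665, plus strand): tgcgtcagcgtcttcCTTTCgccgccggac
Rpl35a (chr16:33056467-33056496, plus strand): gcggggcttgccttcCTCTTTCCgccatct
Rps6 (chr4:86857353-86857382, minus strand): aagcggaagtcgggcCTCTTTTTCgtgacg
Rps15a (chr7:118116133-118116162, minus strand): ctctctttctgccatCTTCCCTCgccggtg
Rpl34 (chr3:130730384-130730413, minus strand): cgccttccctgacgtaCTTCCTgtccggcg
Rpl41 (chr10:128549154-128549183, minus strand): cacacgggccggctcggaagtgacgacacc

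In Rpl34 the run begins 1 base after the annotated start shown. Genes with and without a run at the start did not separate in the measurements: the median log2 fold change was -0.08 for the 13 and -0.09 for the other 47, and the median excess in WT replicate 4 was 0.29 for both. The letters CCGGAAG, the core bound by ETS factors such as GABP, were found on either strand in 36.6% of the 300-base windows of these genes and in 8.86% of all windows. The letters ATGGCGGC, a form of the YY1 motif, were in 7.04% and 2.24%. A match of letters is a description and not a bound site.

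Levels per transcript length, in CPM per kilobase averaged over the 8 libraries, spread over a wide range although the proteins are needed in near-equal numbers. The median was 136 CPM per kilobase and the central quartiles lay between 101 and 180.3. Rplp1 was the highest at 536 CPM per kilobase, followed by Rps15 at 358, Rps14 at 334, Rps2 at 319 and Rpl3 at 301. Rps15 and Rps14 are proteins of the 40S head and platform, Rps2 lines the mRNA entry channel, and Rpl3 lies near the peptidyl transferase centre. The lowest was Rps27l at 12.4 CPM per kilobase, followed by Rpl7l1 at 14.8, Rps20 at 16.0, Rps15a at 20.8 and Rps4l at 30.0. For Rps20 and Rps15a the transcript used is 3706 and 5179 nt long, against a median of 833 nt for the 81, so their values per kilobase depend on the length of the gene model. Near-identical copies elsewhere in the genome add uncertainty: 67 of the 81 transcripts matched at least 1 other annotated gene over 150 nt or more at 98% identity or higher. The 24 genes with over 80% of the transcript in such copies had a median of 178 CPM per kilobase. Leaving out the paralog copies, the 11 without any near-identical copy had a median of 182 CPM per kilobase, from 41.7 to 358. How the authors counted reads with several equally good positions is not given in the sources used here.

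Some ribosomal protein genes have a paralog copy, and each such copy was at a lower CPM than its first copy. Rps27l, a p53-responsive relative of Rps27, was at 5.35, 6.29, 6.37 and 8.11 CPM in WT and 6.46, 4.99, 6.54 and 5.40 CPM in T29-1 Cre. Its libraries overlapped and its log2 fold change was -0.15 (SE 0.136), the least precise value of the 81, and -0.03 (SE 0.123) without WT replicate 4. Rps4l, an autosomal relative of the X-linked Rps4x, was at 28.9 ± 4.04 CPM in WT libraries and 27.7 ± 1.72 CPM in those of T29-1 Cre (SD, 4 libraries each), with a log2 fold change of -0.06 (SE 0.0870). The annotation gives Rps4l, the transcribed pseudogene, a single exon. Rps4x itself was at 171 ± 20.6 and 158 ± 4.71 CPM, with one of -0.11 (SE 0.0703). The values without WT replicate 4 were 0.04 for Rps4l and -0.02 for Rps4x. Rpl22, a 60S protein that also binds a viral small RNA and regulates its own paralog, was at 86.3 ± 4.55 CPM in WT libraries and 84.5 ± 3.25 CPM in those of T29-1 Cre. The paralog Rpl22l1 was at 34.6 ± 3.39 and 32.9 ± 1.21 CPM. Their log2 fold changes were -0.03 (SE 0.0520) and -0.07 (SE 0.0687), and 0.01 and -0.01 without WT replicate 4.

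Rpl36al, an intron-poor copy of the X-linked Rpl36a, was at 26.4 ± 2.35 CPM in WT libraries and 24.7 ± 1.44 CPM in those of T29-1 Cre, and Rpl36a at 42.8 ± 5.71 and 38.8 ± 1.58 CPM (SD, n = 4 each). On the log2 fold change scale Rpl36al was at -0.09 and Rpl36a at -0.14 with all libraries, and at -0.03 and -0.04 without WT replicate 4. Another gene on the same strand overlaps Rpl36al, so its reads are uncertain. Rpl7l1, a nucleolar relative of Rpl7 with a role in ribosome assembly, was at 38.8 ± 2.497 and 38.2 ± 0.985 CPM, and Rpl7 at 172 ± 17.1 and 163 ± 3.80 CPM. Their log2 fold changes were -0.02 and -0.08, and 0.03 and 0.00 without WT replicate 4. The other first copies, Rpl3 at -0.05 (SE 0.0671), Rpl10 at -0.08 (SE 0.0589), Rpl39 at -0.04 (SE 0.0830) and Rps3a1 at -0.09 (SE 0.0652) on the log2 fold change scale, had 95% intervals that include 0. These values were 0.03, -0.02, 0.05 and -0.02 without WT replicate 4. The plot of the pairs shows that copy and first copy kept their order in every library.

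**Figure D2:**
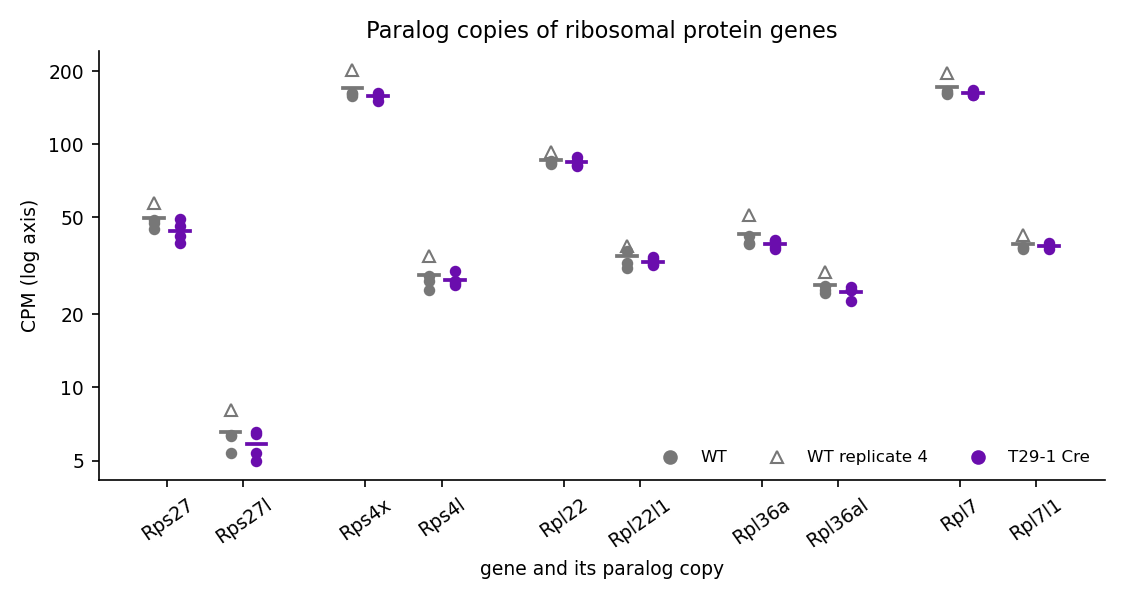
Level in CPM (log axis) of 5 ribosomal protein genes, each followed by its paralog copy, in the WT libraries (grey; WT replicate 4 as an open triangle) and the T29-1 Cre libraries (purple), with a line at each mean. The copy lies below its first copy in every library, from 4.99 to 8.11 CPM for Rps27l against 39.1 to 57.5 CPM for Rps27, and WT replicate 4 is the highest point of each gene.

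The names under the limit include pseudogenes and copies known for restricted expression. Of the 8, Rps3a2 was the nearest to the limit at 0.745 CPM, and Rpl3l, the muscle form of Rpl3, was at 0.304 CPM. Rps3a2, Rps3a3 and Rps12l1 are processed pseudogenes in GENCODE, and their transcripts match other genes in full. Rps3a3, Rps12l1 and Rpl39l held 28, 6 and 4 counts in all 8 libraries together, and Rpl10l, the testis form of Rpl10, and Rps12l2 held 0. Just inside the limit were Rps27l at 6.19 CPM and Rpl39 at 21.9 CPM, so no gene lies close above it. Rpl24, a core protein of the 60S subunit, was also among the names under the limit, at 0.393 CPM with 7 to 19 counts per library. A readthrough gene, Gm28037, overlaps it on the same strand and held 0 counts, and 83.5% of the Rpl24 transcript matches other genes. Whether the counting of shared reads set this level was not tested. The 260 rows named as ribosomal protein pseudogenes summed to 31.6 to 46.1 CPM per library.

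WT replicate 4 was the library in which these genes stood highest, as did many genes of other lists. Relative to the mean of all 8 libraries on the log2 scale, the median of the 81 genes was -0.05, -0.01, -0.03 and 0.26 in WT replicates 1 to 4 and 0.03, -0.09, -0.01 and -0.08 in T29-1 Cre replicates 1 to 4. All 81 genes lay above their mean in WT replicate 4, and for 80 of them it was the highest of the 8 libraries, as it was for 25.5% of all genes. This was also so for 71 of 78 nuclear-encoded oxidative phosphorylation, 33 of 37 proteasome subunit and 52 of 76 mitochondrial ribosomal protein genes. Of 16 genes of the mTOR pathway it was so for 3. The lowest library was T29-1 Cre replicate 2 for 44 and T29-1 Cre replicate 4 for 21 genes. Over the other 7 libraries these genes had a median SD of 0.0565 on the log2 CPM scale, against 0.0727 for the 11502 genes at a mean of 5 CPM or more. The 2 sets were not matched for level, with 47 of the 81 at a mean of 100 CPM or more. The part of level in this gap was not tested.

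**Figure D3:**
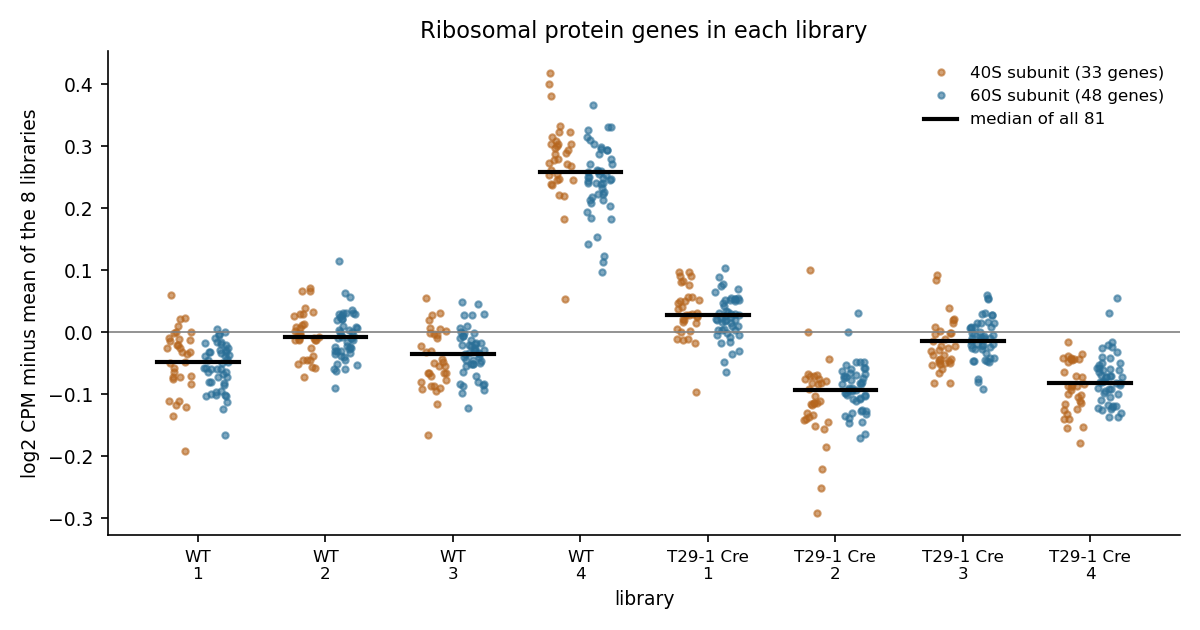
Log2 CPM of each ribosomal protein gene in each library minus its mean over the 8 libraries, for the 40S (brown) and 60S (blue) genes, with a line at the median of the 81. In WT replicate 4 every point lies above 0, with a median of 0.26, while the medians of the other 7 libraries lie between -0.09 and 0.03.

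Against the mean of the other 3 WT libraries, WT replicate 4 was 1.23-fold higher at the median gene, and the log2 differences ran from 0.09 to 0.46. The median over all genes was 0.00. The highest were Rps29 at 0.46, Rps27l and Rps14 at 0.43 and Rpl41 at 0.39. The lowest were Rps15a at 0.09, Rpl15 at 0.12, Rpl4 at 0.14 and Rpl22 at 0.14. Rps14 was at 190, 198, 187 and 258 CPM in the WT libraries. Rpl15, a 60S protein needed for early assembly of that subunit, was at 126, 127, 125 and 137 CPM, and Rpl4, whose long loop lines the exit tunnel, at 377, 389, 374 and 418 CPM.

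The excess of WT replicate 4 followed transcript length, both in the ribosomal protein genes and in other genes. Across genes, which are not independent replicates, the Spearman correlation of the log2 difference with transcript length was -0.513 over the 81 genes and -0.619 over the 11066 genes with a known length at a mean of 5 CPM or more, all measured in the same 4 libraries. For the other 7 libraries, each against the rest of its genotype, that over all genes ran from -0.309 to 0.479. It was 0.288, 0.352 and 0.479 for WT replicates 1 to 3, where the rest includes WT replicate 4. For the T29-1 Cre libraries it ran from -0.309 to 0.289. The correlation of the WT replicate 4 difference with GC content was 0.272 over the 81 and 0.466 over all. For transcripts of up to 600 nt the median difference was 0.33 for 23 ribosomal protein genes, 0.09 for 422 other genes and 0.26 for the 16 of those at 50 CPM or more. Between 800 and 1200 nt it was 0.29 for 25 ribosomal protein genes, 0.17 for 958 others and 0.24 for the 94 of those at 50 CPM or more. Above 4000 nt it was -0.15 for 4645 other genes and 0.09 for Rps15a. Within a length class the ribosomal protein genes thus had the higher median in these libraries, and no test was made of that difference.

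**Figure D4:**
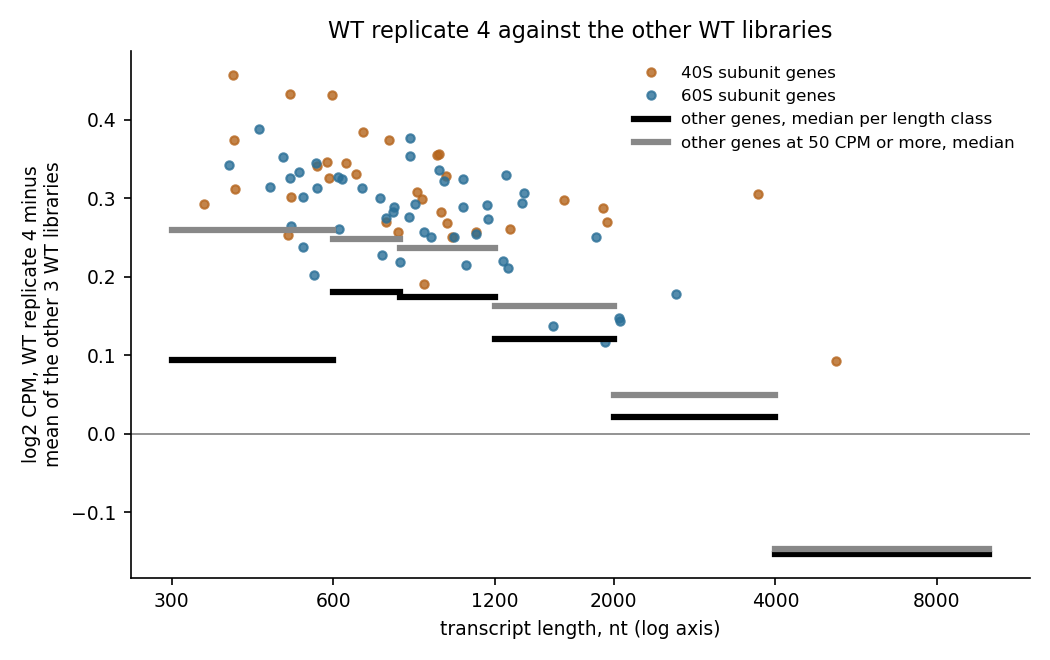
Log2 CPM in WT replicate 4 minus the mean of the other 3 WT libraries against transcript length (log axis), for the 40S (brown) and 60S (blue) genes. Horizontal lines are medians of other genes in each length class (black, all; grey, those at 50 CPM or more; the outer classes have no outer limit and are drawn to the edge of the axis), which run from 0.18 (black, 600 to 800 nt) and 0.26 (grey, up to 600 nt) at the highest to -0.15 above 4000 nt for both.

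Markers of other cell types varied between libraries as well, in WT replicate 4 and elsewhere. The 7 endothelial markers, none of them at 0, had a median of -0.34 against the other WT libraries, and their summed level was 135 to 170.3 CPM in WT and 137 to 192 CPM in T29-1 Cre. The 4 tested of 6 ependymal markers had a median of -0.52 there. The whole list of 6 summed to 9.60 to 20.9 CPM in WT and 10.6 to 15.5 CPM in T29-1 Cre, again with none at 0. Against the mean of all libraries the ependymal median was -0.33 in WT replicate 4, -0.36 in WT replicate 2 and 0.62 in WT replicate 1, and the endothelial one -0.29 in WT replicate 4 and -0.25 in T29-1 Cre replicate 4. For 8 astrocyte markers the median in WT replicate 4 against the other WT libraries was -0.12, and for the 10 principal neuron markers 0.08. The part of length, GC content and cell mixture in the level of the ribosomal protein genes was not tested.

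Other genes of the translation machinery also had small differences between the genotypes. Of the cytosolic ribosomal proteins whose names fall outside the rule, Fau, which encodes a fusion of a ubiquitin-like protein with a 40S protein, was at 86.5 ± 11.8 CPM in WT libraries and 81.9 ± 2.36 CPM in those of T29-1 Cre (SD, 4 libraries each). Rack1, a scaffold on the 40S head listed under its older symbol Gnb2l1, was at 137 ± 13.8 and 134 ± 5.36 CPM. Their log2 fold changes were -0.08 (SE 0.0771) and -0.03 (SE 0.0647) with all libraries, and 0.02 and 0.04 without WT replicate 4.

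Of 35 translation initiation factors edgeR called 0, with 0 at an unadjusted p under 0.05, as in the next 3 lists. Here 25 had a lower and 10 a higher value, and the median log2 fold change was -0.05. On leaving out WT replicate 4, 22 had a lower value (median -0.01). Eif3k, a subunit of the large initiation factor that holds the 40S subunit, had the smallest p, with a value of -0.12 (SE 0.0592), or -0.07 (SE 0.0448) without that library. Of 10 elongation and release factors 8 had a lower value (median -0.04), and 7 without it (median -0.01). Eef2k, the kinase that inhibits elongation factor 2, was at 0.08 (SE 0.0513) with all libraries and 0.08 (SE 0.0486) without WT replicate 4. Eef1b2, an exchange factor of elongation factor 1, was at -0.12 (SE 0.0763) and, without WT replicate 4, -0.02 (SE 0.0446). Among 17 other mRNAs known to carry a TOP motif, such as Eef1g at -0.09 (SE 0.0627; -0.02 without WT replicate 4), 15 had a lower value (median -0.05), and 10 did without WT replicate 4 (median 0.00). Of 40 genes of ribosome assembly and RNA polymerase I, 25 had a lower and 15 a higher value (median -0.02), which turned to 16 and 24 (median 0.01) without WT replicate 4. Nop10, of the particles that modify ribosomal RNA, was at -0.17 (SE 0.0808), or -0.09 (SE 0.0666) without it, and the assembly factor Rrs1 at 0.11 (SE 0.0600).

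For the mTOR pathway, which sets the translation of these mRNAs, the sign depended on the setting. Of its 16 genes 5 had a lower and 11 a higher value with all libraries, with a median of 0.03, 0 called by edgeR and 1 at an unadjusted p under 0.05. Deptor, an inhibitor of mTOR, was at 15.4 ± 1.27 CPM in WT libraries and 17.4 ± 1.23 CPM in those of T29-1 Cre (SD, 4 libraries each), a log2 fold change of 0.18 (SE 0.0777, edgeR adjusted p = 0.9985), and of 0.24 (SE 0.0703) without WT replicate 4. The kinase gene Rps6kb2 was at -0.13 (SE 0.0667) and -0.09 (SE 0.0621). Without WT replicate 4, 7 of the 16 had a lower and 9 a higher value (median 0.01), and with the length and GC correction 10 had a lower value (median -0.01). These genes have a median transcript length of 5774.5 nt, and their median difference in WT replicate 4 was 0.02.

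Genes of other large complexes served for comparison. Of 76 mitochondrial ribosomal protein genes 61 had a lower value (median -0.03), of 78 nuclear-encoded oxidative phosphorylation genes 73 (median -0.06) and of 37 proteasome subunit genes 35 (median -0.07), and edgeR called 0 in each, with 1, 2 and 0 at an unadjusted p under 0.05. Without WT replicate 4 these counts were 38, 38 and 22, with medians of 0.00, 0.00 and -0.02. Relative to the other WT libraries, WT replicate 4 had medians of 0.15, 0.24 and 0.23 for these lists, against 0.29 for the cytosolic ribosomal protein genes. No test was made of whether the lists differ from each other.

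**Figure D5:**
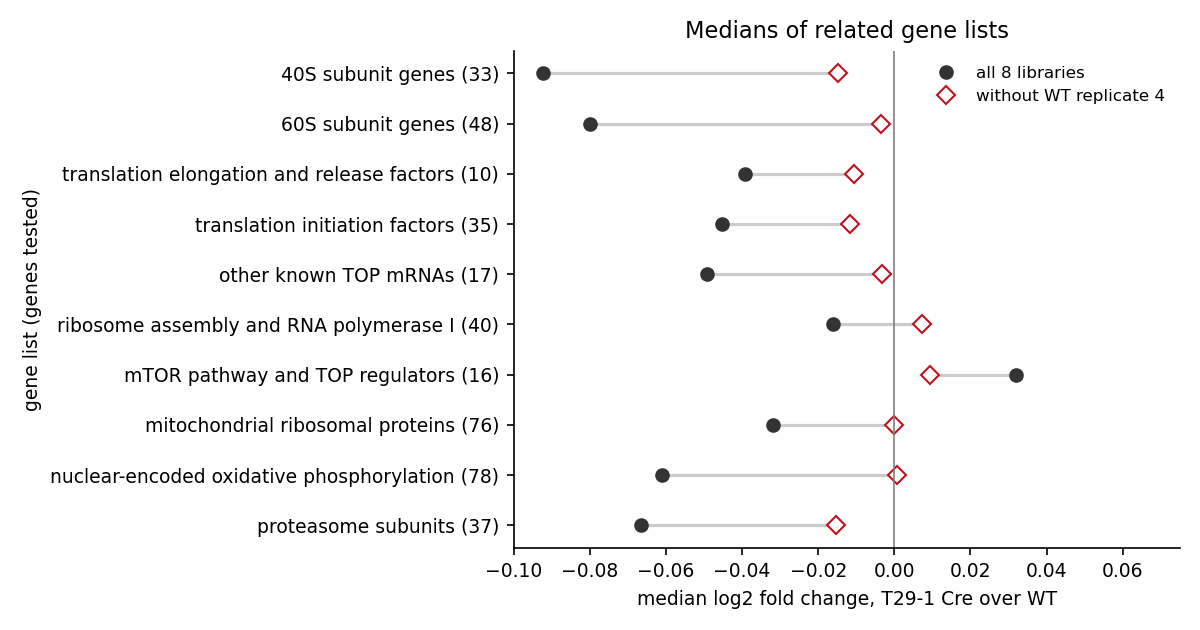
Median log2 fold change of T29-1 Cre over WT for the ribosomal protein genes and related gene lists, with the number of genes tested, from all 8 libraries (filled circles) and without WT replicate 4 (open diamonds). The circles of the 40S and 60S genes lie at -0.09 and -0.08, and all diamonds lie between -0.02 and 0.01.

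In the authors' deposited table of this comparison, which holds 17999 genes, all 81 ribosomal protein genes were present. There 79 had a lower value in T29-1 Cre, the median log2 fold change was -0.09, and 0 had an unadjusted p under 0.05, the smallest being 0.0518 for Rplp2.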

How the data were processed

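The authors deposited a table of whole-number read counts per gene name for the 8 libraries, and a table of their comparison whose log2 fold change and p-value columns were used here. Its signed fold change, mean log2 CPM and mean CPM columns, as the authors deposited them, were not used for any result. Per the labels' protocols, poly(A) RNA from 500 ng of total RNA was made into directional libraries and sequenced as paired reads of 150 bp. The tools were STAR 2.6.1d, featureCounts and edgeR 3.11 on GRCm38, per the submitters' processing notes. Annotation, strand setting and the rule for reads with several positions: not given in the sources used here.

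Counts were analysed in R 4.3.3 with edgeR 4.0.16: filterByExpr (minimum count 10, minimum total 15), TMM scaling, quasi-likelihood fit of all 15996 genes, Benjamini-Hochberg threshold 0.05. Standard errors were derived from the F statistic. Log2 CPM used a prior count of 2. Intervals are at 95% and cover the spread between libraries. An exact permutation test (two-sided) of log2 CPM used 70 assignments (35 without WT replicate 4). Libraries of a genotype differed beyond sampling noise in every pair (chi-square over degrees of freedom, all genes with enough counts). The pairs of WT replicate 4 with the other WT libraries gave 14.87 to 19.22, and all other pairs 3.316 to 7.333. Positions, lengths and GC content came from GENCODE M21, preferring transcripts linked to a curated RefSeq mRNA, and matched 95.0% of tested genes. Start windows came from RefSeq.

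Alternatives were DESeq2 1.42.0, limma-voom (limma 3.58.1), 4 scalings, 2 filters, a replicate block, offsets for length and GC content (loess span 0.5), and each library left out in turn. The fit was tested on simulated data. The rule for named genes took the stalk proteins, paralog pairs, genes past the threshold, those with the smallest p, the extremes per kilobase and in WT replicate 4, those with a higher value in T29-1 Cre, and the 2 genes with the smallest p of each related list. Rps6, Rpl24, Rpl28, Gnb2l1, Eef1a1, Eef2, Tpt1, Rps27rt and Rpl37rt were added outside that rule, after values were seen. A gene picked by it is not reported here. The members and lists were chosen with earlier results of these data known.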

Additional observations from a re-analysis of the deposited data

Results flagged for a closer look

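Measures of the ribosomal protein genes were screened, within each genotype of 4 libraries, for a library whose gap to the nearest other was large against the group's range (Dixon's 95% critical value). The 70 groups were 6 summed measures and the 29 genes named by the rule, some of them named because they were extreme in WT replicate 4, so the tally (16 groups, 14 in WT replicate 4) is a description. Over all 81 genes such a library was WT replicate 4 for 30 genes, T29-1 Cre replicate 1 for 2 and T29-1 Cre replicate 2 for 1. Chance gives about 1 in 20 for independent groups, and these are not independent.

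In WT replicate 4 the summed level was 12120 CPM for all 81 genes (the other WT libraries 9854 to 10180), 4731 CPM for the 40S genes and 7392 CPM for the 60S genes. The share of all counts was 1.22% there (0.980% to 1.02%), and the genes' median log2 distance from their 8-library mean was 0.2593 (-0.0487 to -0.0075). Of the named genes, those far above the other WT libraries were Rps14 at 258 CPM (187 to 198), Rps15 at 215 CPM (172 to 177), Rps4x at 202 CPM (158 to 162), Rpl7 at 197 CPM (161 to 166), Rpl41 at 156 CPM (117 to 120.4), Rps29 at 88.9 CPM (62.8 to 66.9), Rpl34 at 74.3 CPM (58.7 to 60.4), Rps20 at 72.8 CPM (57.7 to 60.02) and Rpl7l1 at 42.5 CPM (37.1 to 38.0).

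In T29-1 Cre replicate 1 the ratio of summed 40S to 60S levels was 0.6266 (the other T29-1 Cre libraries 0.6189 to 0.62). In T29-1 Cre replicate 2, Rps20 was at 50.6 CPM (57.2 to 58.3).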

How the results depend on the processing

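No ribosomal protein gene was called in any of the 19 alternative fits. The number with a lower value in T29-1 Cre was 69 to 80 except without WT replicate 4, so that leaving out each library in turn gave 46 to 80 genes and medians from -0.1176 to -0.0061. Over all genes edgeR called 1, or 2 with no filter on low counts, with the replicate block, and with the block and the length and GC offsets. The ratio of summed CPM was 0.944, 0.943 with total counts only and, added after seeing the data, 0.995 without WT replicate 4. An unadjusted p under 0.05, which 0 ribosomal protein genes had with all libraries, was reached by 11 with no filter, 7, 3 and 4 without WT replicates 1, 2 and 3, 2 without T29-1 Cre replicate 1, 3 with the replicate block and 2 with block and offsets, all lower, and by 1, higher, without WT replicate 4. Replicate numbers did not pair the libraries (correlations of deviations -0.141, 0.127, 0.010 and -0.017, with 1 of 8 libraries closest to its own number). With the replicate block 79 genes were lower and the median was -0.0828.

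Differences near 0 changed sign, none of them past the threshold, and the cause was not tested. Leaving out single libraries gave -0.0459 to 0.0122 for Rpl15, -0.053 to 0.0086 for Rpl22, -0.0888 to 0.0331 for Rpl3, -0.0319 to 0.0905 for Rpl34, -0.0946 to 0.0513 for Rpl39, -0.0392 to 0.0159 for Rpl4, -0.0395 to 0.0269 for Rpl7l1, -0.1082 to 0.0304 for Rplp1 and -0.1229 to 0.0379 for Rps4l. With length and GC offsets, and with the block added, Rpl39 was at 0.0285 and 0.0303, Rpl4 at 0.0124 and 0.0125, Rplp1 at 0.0124 and 0.0132, Rps4l at 0.0022 and 0.0015, and Rps15a at -0.0109 and -0.0081. Upper quartile scaling gave -0.0049 for Rpl34. Counts limit Rps27l most.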

Other observations

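Intronless relatives of ribosomal protein genes outside the name rule were low in every library. Rps27rt was at 0.535 ± 0.101 CPM in WT libraries and 0.599 ± 0.120 CPM in those of T29-1 Cre (SD, 4 libraries each), and Rpl37rt at 1.08 ± 0.106 and 0.989 ± 0.278 CPM. Of the 81 genes, 30 contain 58 annotated small nucleolar RNA genes, with 5 in Rpl4. The median log2 fold change was -0.08 for these hosts and -0.09 for the others.

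Among the other known TOP mRNAs, Eef1a1, the main elongation factor gene, was at 1989 ± 122 CPM in WT libraries and 1923 ± 28.2 CPM in those of T29-1 Cre (SD, 4 libraries each), and Eef2 at means of 1237 and 1232 CPM. The WT libraries of Eef1a1 held 1917, 1949, 1919 and 2170.0 CPM, with WT replicate 4 the highest, and the T29-1 Cre libraries 1929, 1895, 1960.0 and 1909 CPM. Tpt1, a translationally controlled tumour protein, was at 227, 232, 225 and 266 CPM in the WT libraries, again highest in WT replicate 4.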
